A study of Danio rerio with 6 samples.

Results

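Genes that guide thymocytes into the thymic medulla and out of the organ were followed in whole thymi of zebrafish with and without functional *foxn1*. These 8 genes were *s1pr1*, *klf2a*, *klf2b* and *ccr7* on the lymphocyte side, and *ccl19a.1*, *ccl19a.2*, *spns2* and *sgpl1* on the stromal side. Each symbol matched 1 Ensembl identifier, ignoring case, so that 8 of the 32520 genes in the count files were members, and all 8 passed the filter on low counts (more than 5 counts in at least 3 libraries), as 23805 genes did. Bulk RNA-seq libraries of 3 foxn1+/+ and 3 foxn1-/- pools were compared. Every pool held the RNA of 3 adult fish aged 3 months. The mutant line carries an internal deletion of *foxn1*, which is present in every cell of the fish rather than in the thymus alone. The methods place the thymi used for PCR on an *ikzf1*:EGFP background in both genotypes and do not repeat this for the libraries.

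S1P (sphingosine-1-phosphate) is a lipid signal that is high in blood and lymph and low inside lymphoid tissue. In mice, mature thymocytes raise the receptor S1PR1 under control of the transcription factor KLF2 and follow S1P out of the thymus. The lyase SGPL1 destroys S1P within the tissue, and SPNS2 exports it from cells such as endothelium. The chemokine receptor CCR7 draws positively selected thymocytes towards CCL19 and related ligands of the medulla. In several vertebrates S1PR1 and KLF2 are also genes of blood vessels, where KLF2 responds to flow, and zebrafish *spns2* is needed for the early migration of heart precursors.

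In mutants, *s1pr1*, *klf2a*, *klf2b*, *spns2* and *ccl19a.2* rose between 4.51-fold and 6.30-fold, *ccr7* fell 18.8-fold, *sgpl1* fell 1.77-fold, and *ccl19a.1* did not pass the test. Thus 5 members were higher and 2 were lower at an adjusted p under 0.05 (two-sided quasi-likelihood test of edgeR, with p-values adjusted by Benjamini-Hochberg over every gene tested). The background was high. Of all genes tested, 72.1% passed this test, 36.2% as higher and 35.9% as lower, and 77.1% had genotypes that did not overlap, 37.8% higher and 39.3% lower in mutants. The count of called members is therefore read for its directions and sizes and not for its number. Levels are given as CPM, the counts of a gene relative to its library's total after TMM scaling. The median log2 fold change of the members was 2.19, and that of all genes tested was 0.02.

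Libraries held between 31989159 and 42198532 counts. The targeted gene *foxn1* had 495, 375 and 349 counts in wild types, compared with 114, 129 and 66 in mutants, and these remaining reads were not assigned to parts of the gene. All 16 T-lineage marker genes tested were lower in mutants, and their summed level was between 9983 and 12894 CPM in wild types and between 315 and 812 CPM in mutants. Blood endothelium markers were higher for 14 of 15 genes, and their sum was between 113 and 139 CPM in wild types and between 294 and 417 CPM in mutants. Erythrocyte markers were higher for 7 of 7 genes, with sums between 192 and 287 CPM in wild types, of 971 and 1053 CPM in mutant replicates 1 and 2 and of 2586 CPM in mutant replicate 3. Muscle markers were higher for 10 of 10 identifiers, with a mean sum of 11700 CPM in wild types and 126910 CPM in mutants. Of 9 thymic epithelium markers, *foxn1* among them, 4 were higher, 4 were lower and 1 did not pass the test. In this list *aire* fell from 251, 171 and 188 counts to 4, 4 and 2, whereas *krt8* rose by 1.59 on the log2 scale. The part of thymic epithelium in the values of the stromal-side genes was not tested. In whole organs, fewer cells of a type and less RNA per cell cannot be told apart. For genes that rose, a larger share of a cell type and more RNA per cell cannot be told apart either.

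*s1pr1* (ENSDARG00000042690), the receptor through which thymocytes sense S1P, was counted 352, 614 and 476 times in wild types against 2208, 3088 and 3036 times in mutants. In normalized values these were 7.31, 16.3 and 12.7 CPM against 64.3, 83.1 and 81.2 CPM. All mutant libraries lay above all wild-type libraries, and wild-type replicate 1 was the lowest of the 6. The mean rose from 12.1 ± 4.53 to 76.2 ± 10.3 CPM (SD, n = 3 each). This log2 fold change of 2.66 (SE 0.295, adjusted p = 0.000257, edgeR) exceeded that of 93.6% of the genes tested. The receptor thus moved opposite to the T-lineage markers, none of which rose. Among the 15 blood endothelium markers, 2 had a larger log2 fold change than *s1pr1* and 13 a smaller one. A larger one was also seen for 8 of 10 muscle, 4 of 7 erythrocyte, 3 of 10 connective tissue and 1 of 6 lymphatic endothelium markers.

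*klf2a* (ENSDARG00000042667), one of the zebrafish counterparts of KLF2, had 42.9, 45.4 and 52.9 CPM in wild types and 148, 130 and 359 CPM in mutants. The wild types were close together, whereas mutant replicate 3 was 2.77 times the lowest mutant. Its raw counts were 2065, 1709 and 1983 for wild types, and 5076, 4817 and 13442 for mutants. The log2 fold change was 2.17 (95% interval from 1.23 to 3.12, adjusted p = 0.00235, edgeR). Without mutant replicate 3 it was 1.64, with the groups still apart. That library also had the highest erythrocyte markers, and the part of erythrocytes in the *klf2a* value was not tested.

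*klf2b* (ENSDARG00000040432), the other counterpart, had 4.24, 8.71 and 9.17 CPM in wild types and 37.2, 30.2 and 34.8 CPM in mutants. Wild-type replicate 1 was the lowest, as for *s1pr1*, *klf2a* and *spns2*, and the mutants spread by only 1.23-fold from lowest to highest. Its log2 fold change of 2.21 (95% interval from 1.52 to 2.91, adjusted p = 0.000545, edgeR) was close to that of *klf2a*, but the paralogues differed in their pattern over the mutants. The log2 ratio of *klf2b* to *klf2a* within a library overlapped between genotypes (−2.75 ± 0.516 for foxn1+/+, −2.49 ± 0.766 for foxn1-/-, SD, n = 3 each), with mutant replicate 3 apart from the other mutants at −3.37. An exact two-sided permutation test over libraries gave p = 0.6 for this ratio, where 3 libraries against 3 cannot give less than 0.1.

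*spns2* (ENSDARG00000061017), the S1P exporter, had 15.7, 20.7 and 31.3 CPM in wild types and 98.0, 82.6 and 164 CPM in mutants. No mutant library overlapped a wild type. Mutant replicate 3 was again the highest, at 6124 counts, above the 3363 and 3069 of mutant replicates 1 and 2. Its log2 fold change was 2.35 (SE 0.347, adjusted p = 0.000893, edgeR), and 2.08 without mutant replicate 3.

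*sgpl1* (ENSDARG00000061375), the lyase that irreversibly cleaves S1P, moved the other way. Its counts were 1432, 1050 and 1027 in wild types and 583, 575 and 578 in mutants, or 29.7, 27.9 and 27.4 CPM against 17.0, 15.5 and 15.5 CPM. This was the smallest of the changes that passed the test and also the one with the tightest replicates. The log2 fold change was -0.83 (95% interval from -1.07 to -0.59, adjusted p = 0.00036, edgeR). The exporter and the lyase therefore separated. The log2 ratio of *spns2* to *sgpl1* within a library, which does not depend on scaling between libraries, averaged −0.39 ± 0.558 for foxn1+/+ and 2.78 ± 0.542 for foxn1-/- (SD, n = 3 each). It did not overlap between genotypes (exact permutation p = 0.1, the smallest possible, and 0.133 adjusted over 4 such ratios). This and the other ratios between members were chosen after their values were seen.

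**Figure D1:**
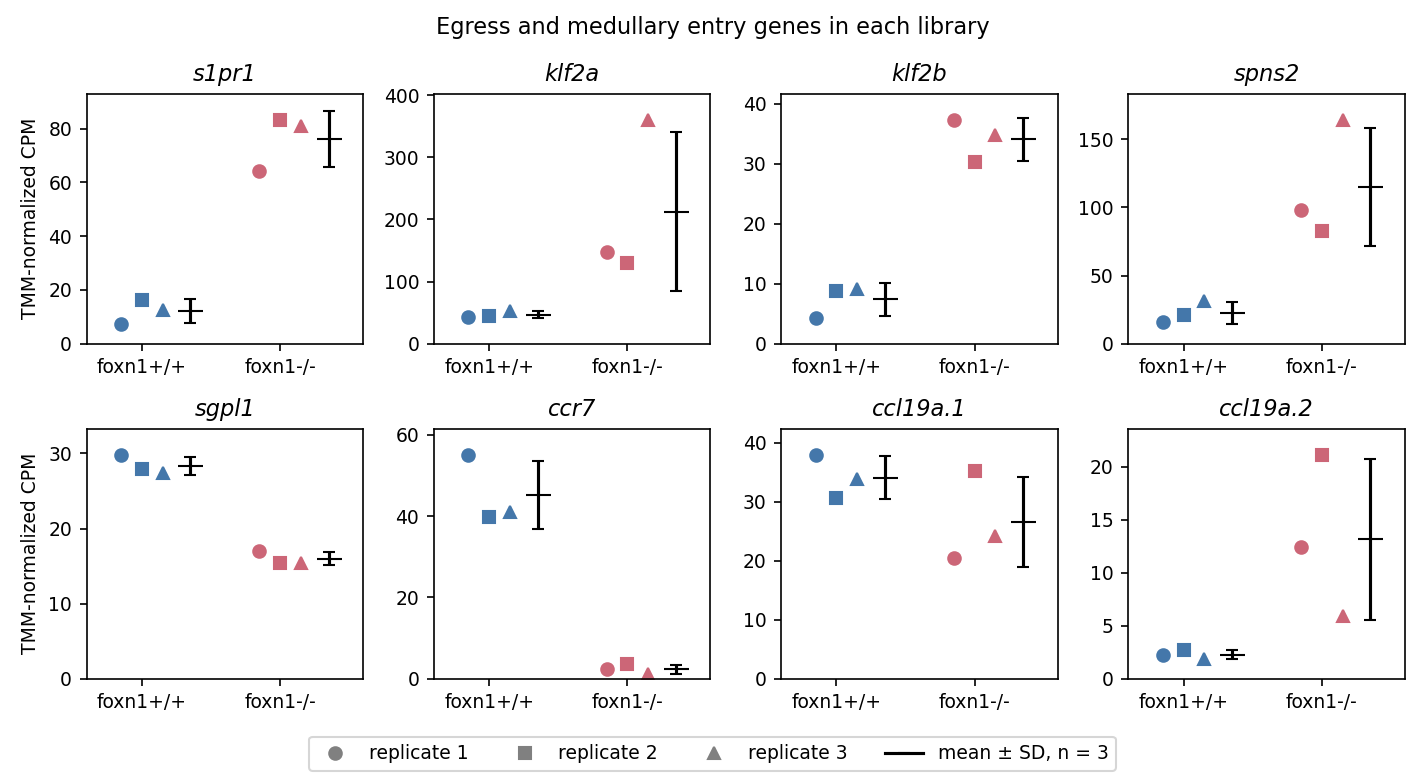
Normalized CPM (vertical axes, each from 0) of the 8 egress and medullary entry genes in the 3 foxn1+/+ libraries (blue) and the 3 foxn1-/- libraries (red), with the mean and SD of each genotype in black. The genotypes are apart for all genes except *ccl19a.1*, where mutant replicate 2 at 35.1 CPM lies among the wild types, and mutant replicate 3 stands above the other mutants for *klf2a* and *spns2*.

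**Figure D2:**
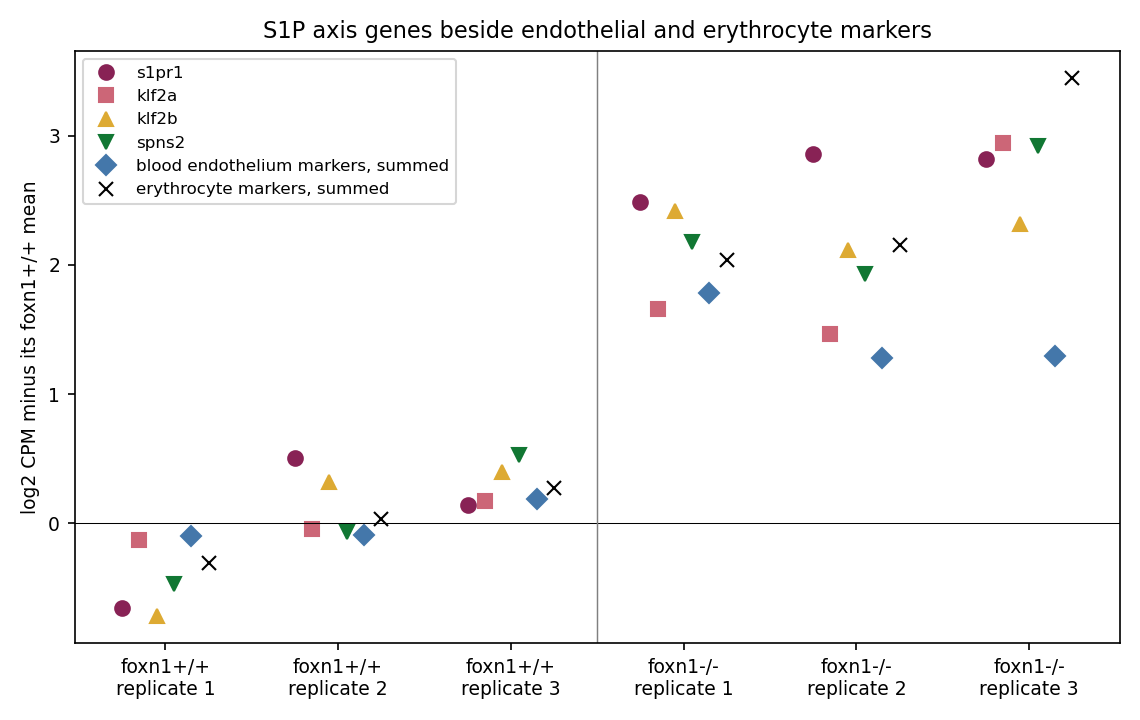
Level of *s1pr1*, *klf2a*, *klf2b*, *spns2* and of the summed blood endothelium and erythrocyte markers in each library, as log2 CPM minus the mean of the 3 foxn1+/+ libraries (vertical axis), with 1 column of points for each library. From mutant replicates 1 and 2 to mutant replicate 3, *klf2a*, *spns2* and the erythrocyte markers are higher, whereas *klf2b*, *s1pr1* and the endothelial markers show no such step. Summed connective tissue markers, not drawn here, were also highest in mutant replicate 3, at 18096 CPM against 15867 and 12212 CPM in mutant replicates 1 and 2.

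*ccr7* (ENSDARG00000044561), the receptor for medullary entry, had 2644, 1498 and 1540 counts in wild types, compared with 81, 132 and 49 in mutants. These were 54.9, 39.8 and 41.1 CPM against 2.36, 3.55 and 1.31 CPM. The 3 mutant libraries were all far under the wild types, with mutant replicate 3 the lowest. Its log2 fold change was -4.23 (SE 0.364, adjusted p = 9.84e-05, edgeR), and only 2.31% of the genes tested had a lower one. This fall was of the size seen for T-lineage genes. Of the 16 markers, 5 fell less than *ccr7* and 11 fell more, and the log2 ratio of *ccr7* to their summed CPM averaged −8.02 ± 0.249 for foxn1+/+ and −8.02 ± 0.363 for foxn1-/- (SD, n = 3 each; exact permutation p = 1). Leaving out each library in turn moved the difference of that ratio between -0.14 and 0.21. With the most abundant marker, *rag1*, left out of the sum, the difference was −0.16, with overlap (exact permutation p = 0.6). The marker that fell least, *gata3*, by 0.90 on the log2 scale, averaged 245 CPM in wild types and 131 CPM in mutants. The whole sum averaged 11716 and 626 CPM, so that *gata3* weighed more in the mutant sums. No ratio without *gata3* was computed, so the near-equal ratios hold only for a sum that includes it.

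In mammals, CCR7 is also a receptor of migrating dendritic cells. Of 6 dendritic cell markers matched, 4 were lower, 1 was higher and 1 did not pass the test in mutants. Their summed level was between 115 and 142 CPM in wild types and between 76.8 and 115 CPM in mutants, and each of the 6 had a higher log2 fold change than *ccr7*. Mature T cell markers were mixed. Of 7 identifiers, 4 were lower and 2 were higher, and *foxp3a*, the regulator of regulatory T cells, fell by 5.41 on the log2 scale (edgeR). None of the dendritic or mature T cell markers was at 0 counts in all mutants, and their part in the *ccr7* value was not tested.

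*ccl19a.1* (ENSDARG00000058389), a ligand of the CCL19 family, had 1821, 1150 and 1270 counts in wild types, compared with 700, 1306 and 904 in mutants. In CPM the values were 37.8, 30.5 and 33.9 against 20.4, 35.1 and 24.2. Mutant replicate 2 lay within the wild-type range, and the other mutants lay below it. The difference was within the replicate error (log2 fold change -0.36, 95% interval from -0.85 to 0.13, adjusted p = 0.157, edgeR). It was called lower without mutant replicate 2 (log2 fold change -0.55, adjusted p = 0.0119, edgeR) and with scaling by library size alone (-0.76, adjusted p = 0.0165, edgeR).

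*ccl19a.2* (ENSDARG00000035632) had 110, 101 and 72 counts in wild types, compared with 428, 783 and 223 in mutants, and thus rose where its neighbour did not. The mutant libraries, at 12.5, 21.1 and 5.96 CPM, were all above the wild types, at 2.28, 2.68 and 1.92 CPM, but spread by 3.53-fold, the widest range of the 8 genes. Mutant replicate 2 was the highest for both ligands and for *ccr7*. The log2 fold change of *ccl19a.2* was 2.52 (SE 0.451, adjusted p = 0.00213, edgeR), and 2.07 without mutant replicate 2. The log2 ratio of *ccl19a.2* to *ccl19a.1* within a library averaged −3.90 ± 0.341 for foxn1+/+ and −1.16 ± 0.748 for foxn1-/- (SD, n = 3 each), without overlap (exact permutation p = 0.1, adjusted 0.133). In the RefSeq annotation of another assembly, GRCz12tu, the model of *ccl19a.2* lies within the span of *ccl19a.1*. Reads of overlapping genes may be counted for neither, and how the deposited counts treated them is not given in the sources used here. With the counts of both summed, which was tried after their values were seen, the difference did not pass the test (log2 fold change 0.13, adjusted p = 0.652, edgeR). A further gene of the family, *ccl19b* (ENSDARG00000039351), rose from 2017, 1670 and 974 counts to 4398, 4466 and 2888 counts (log2 fold change 1.54, adjusted p = 0.00189, edgeR). Counted apart, 2 of the 3 ligand genes thus rose while the receptor fell, whereas with *ccl19a.1* and *ccl19a.2* summed only *ccl19b* rose.

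The other genes of these routes were taken from lists by role, in which 51 of 61 symbols other than members matched 50 identifiers. All 50 were tested. Of these, 20 were higher and 21 lower (82.0%, against 72.1% of all genes), with a median log2 fold change of -0.10. Among 5 further S1P receptors, 2 rose, 2 fell and *s1pr4* did not pass the test (log2 fold change -0.46, adjusted p = 0.238, edgeR). *s1pr2* (ENSDARG00000036548), which in mammals curbs cell migration, had 4798, 3610 and 4157 counts in wild types, compared with 1063, 954 and 1067 in mutants, a fall of 1.85 on the log2 scale. *s1pr5a* and *s1pr3a* rose by 2.30 and 1.86 on that scale, the first from 219, 218 and 151 counts to 989, 804 and 768. The identifier ENSDARG00000052192, listed under S1PR5, fell by 1.83. The receptors of the family thus changed in opposite directions between genotypes.

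Of 16 further genes for the making, breakdown and transport of S1P, 8 were higher, 2 were lower and 6 did not pass the test. Thus 62.5% of them passed, against 72.1% of all genes tested. Among these calls, those of *sphk2*, *sgpp2*, *acer2* and the identifier ENSDARG00000037091 under ASAH1 were lost under some alternative settings. The largest rise was that of *mfsd2b* (ENSDARG00000030263), which exports S1P from red blood cells and platelets in mice. It had 10, 38 and 32 counts in wild types, compared with 226, 254 and 361 in mutants, a log2 fold change of 3.50 (adjusted p = 0.000907, edgeR), highest in the library with the highest erythrocyte markers. *plpp3*, a lipid phosphatase that removes S1P outside cells, rose by 2.11 on the log2 scale, and 3 of the 4 identifiers listed under PLPP1 and PLPP2 rose by between 1.16 and 2.08. The S1P phosphatase *sgpp1* fell by 0.69, in the direction of *sgpl1*, but the other genes of its type did not. *sgpp2* rose by 1.64 (adjusted p = 0.0179, edgeR), from 9, 8 and 3 counts to 25, 12 and 18. *sgpp1a* had a log2 fold change of 0.35 that did not pass the test. Of the kinases that make S1P, *sphk2* had a log2 fold change of 0.43 (adjusted p = 0.0215, edgeR), which became 0.02 with scaling by library size alone, and *sphk1* was low, at 3 to 8 counts in wild types and 8 to 12 in mutants, and did not pass the test.

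All 6 further genes of medullary entry passed the test, 5 as higher and 1 as lower. Of all genes tested, 72.1% passed, 36.2% as higher and 35.9% as lower. Atypical receptors of the ACKR4 type remove CCL19 and related chemokines, and the 2 identifiers under that symbol went in opposite directions. ENSDARG00000078729 had 766, 552 and 613 counts in wild types, compared with 144, 154 and 114 in mutants (log2 fold change -2.04), whereas ENSDARG00000040133 had 55, 61 and 50 against 323, 213 and 224 (log2 fold change 2.37). The guidance ligand *sema3e* and its receptor *plxnd1*, which in mice steers thymocytes to the medulla, rose by 2.54 and 1.43 on the log2 scale. The chemokine receptor *ccr8.1* rose by 1.65.

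Of 11 genes related to KLF2 or its regulation, 4 were higher, 5 were lower and 2 did not pass the test. Thus 81.8% of them passed, against 72.1% of all genes tested. In mouse T cells FOXO1 switches on *Klf2*. The identifier ENSDARG00000099555, listed under FOXO1, rose from 1811, 1426 and 1482 counts to 2972, 3469 and 3132 counts (2.29-fold, adjusted p = 6.61e-05, edgeR). The other, ENSDARG00000061549, had 24, 10 and 18 counts in wild types, compared with 2, 2 and 1 in mutants. These mutant counts were under the floor of 3 counts per library. The mean wild-type CPM of this identifier was 5.01 times the mutant floor, a ratio that leaves out the spread of the wild types. By edgeR it was 8.53-fold lower, with an interval from 3.77-fold to 19.3-fold at the confidence level used for the members. *map2k5* and *mapk7*, the kinases of the flow-responsive route to KLF2 in endothelium, fell by 0.77 and 0.55 on the log2 scale, while the 2 identifiers under MEF2C, their target in that route, rose by 2.91 and 1.04. *mapk7* lost the call without mutant replicate 1 or 3 and with voom and treat. The identifier listed under KLF6, higher by 0.47, was called in 9 of 14 settings, the main one included. *klf13* fell by 1.38. MEF2C is also a gene of muscle, and all 10 muscle marker identifiers were higher in mutants. The part of muscle in the values of the MEF2C identifiers was not tested.

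Genes listed for lymphocyte motility and egress fell almost throughout, with 11 of 12 lower and 1 higher, where 35.9% of all genes tested were lower. *il7r*, the interleukin-7 receptor that in mice depends on FOXO1 as *Klf2* does, fell from 5766, 4208 and 4228 to 283, 315 and 167 counts, a log2 fold change of -4.02. The actin regulator *coro1a*, required for thymocyte egress in mice, fell from 83015, 58980 and 58469 to 4073, 5325 and 2859 counts, a log2 fold change of -3.84. The integrin genes *itgb7* and *itga4* fell by 3.63 and 3.05, and *mob1bb* was the exception, with a rise of 0.79. The median log2 fold change of the 12 genes was -2.78, against 2.66 for *s1pr1*, and no gene of this group other than *mob1bb* moved in the direction of *s1pr1*. For the 16 T-lineage markers the median was -4.48, and none of the 12 genes fell that far. The part of T-lineage cells in these falls was not tested.

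**Figure D3:**
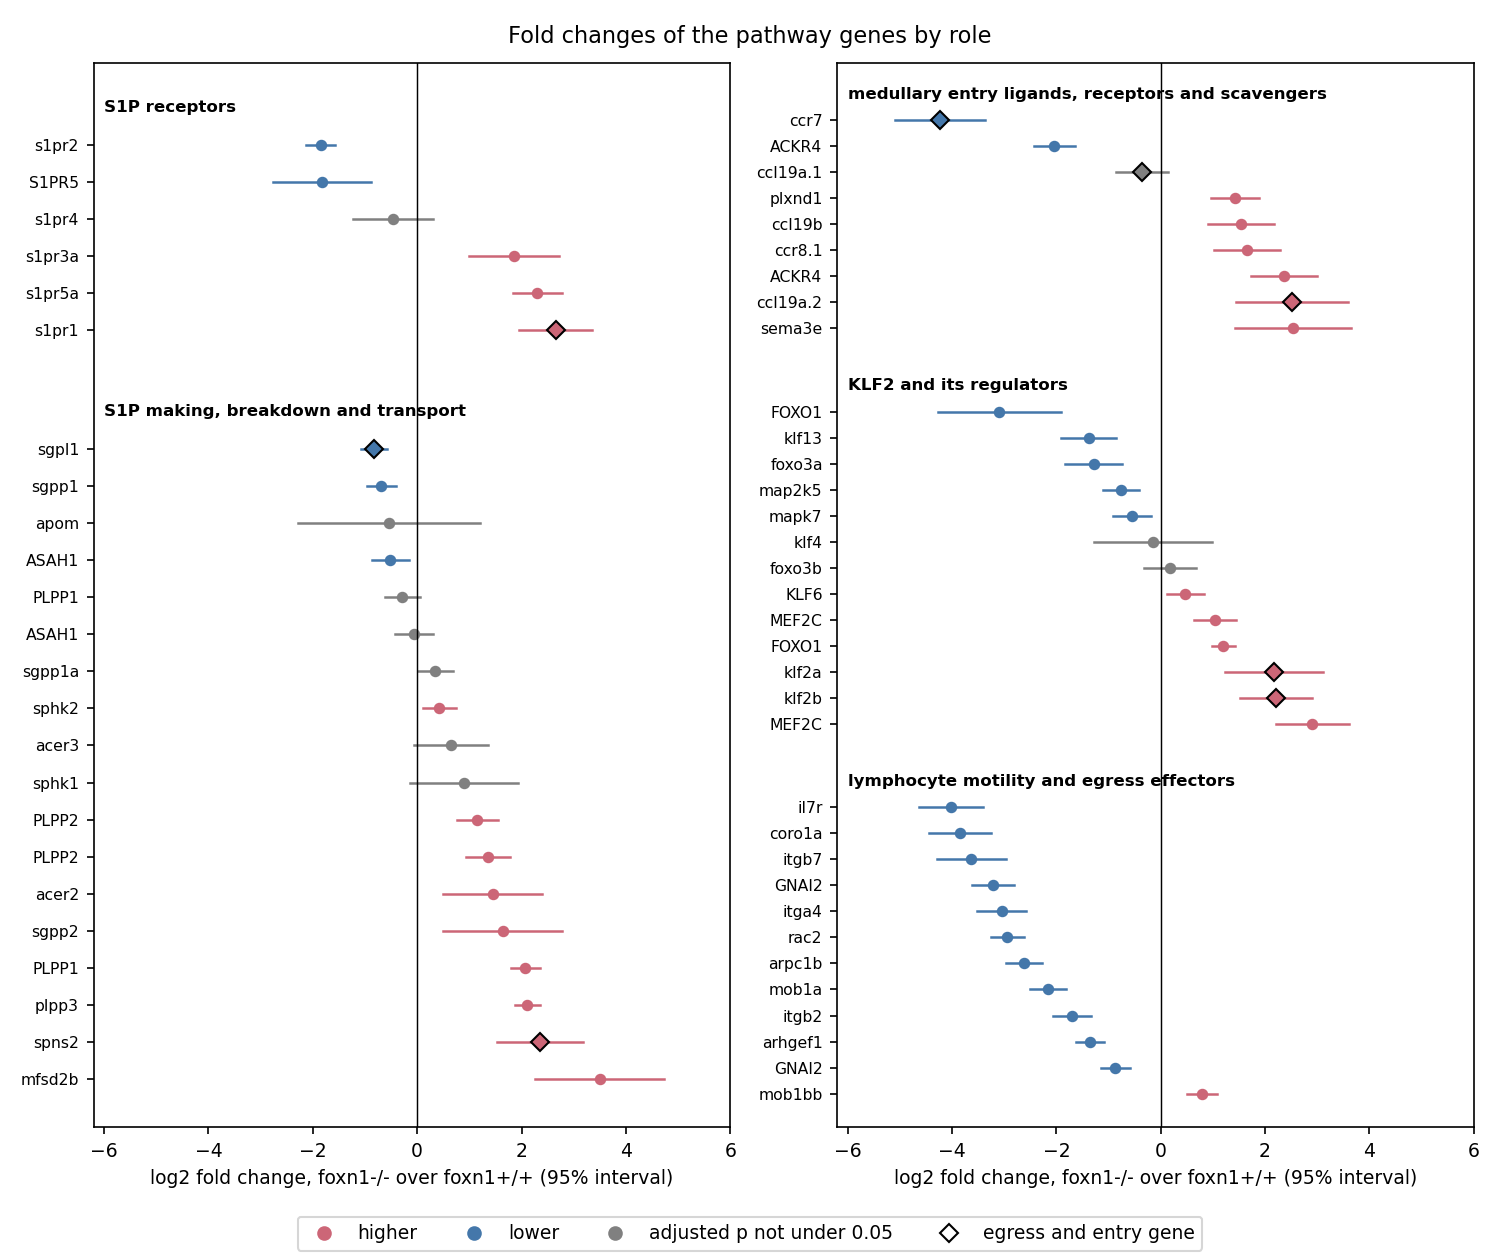
Log2 fold change of foxn1-/- over foxn1+/+ libraries with 95% interval (horizontal axes) for the egress and entry genes (diamonds) and the other pathway genes (circles), grouped by role. Symbols that appear more than once stand for identifiers that share a table symbol. Genes listed for lymphocyte motility and egress lie on the left except *mob1bb* at 0.79, whereas *s1pr1*, *klf2a*, *klf2b* and *spns2* lie on the right, between 2.17 and 2.66.

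To set the members against cell types without a scaling between libraries, their CPM were divided by the summed CPM of marker genes in the same library. With 16 such ratios the smallest adjusted p of the exact permutation test was 0.123, so that none could pass and the differences are given as values. The summed T-lineage markers fell so far that a gene with an unchanged CPM would differ by 4.33 in its log2 ratio to them. The median difference over the tested genes above 0 in every library was 4.36, and for 95% of all genes tested the ratio was higher in mutants without overlap (lower without overlap, 1.23%). The mutant minus wild-type difference was above that median for *s1pr1* (7.06), *klf2a* (6.36), *klf2b* (6.62), *spns2* (6.68) and *ccl19a.2* (6.69). It was below that median for *ccl19a.1* (3.94) and *sgpl1* (3.51), although the genotypes did not overlap for these 7 genes. *ccr7*, at 0.00 with *gata3* in the sum, overlapped between genotypes.

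Against blood endothelium markers, the median difference over those genes was −1.42, with 8.98% of all genes higher and 62.5% lower in mutants without overlap. Log2 fold changes of the 15 markers in this sum ranged from 0.24 for *tek* to 3.43 for *ecscr*, with a median of 1.65. The gene listed as FLI1 and *sox7* rose by only 0.92 and 0.93, so that ratios to this sum depend on its mix of markers. The log2 ratio of *s1pr1* to the sum was −3.95, −2.81 and −3.45 in wild types and −2.70, −1.82 and −1.87 in mutants, a difference of 1.27 without overlap, although wild-type replicate 2 lay only just under mutant replicate 1. *klf2b* and *spns2* differed by 0.83 and 0.89, also without overlap (exact permutation p = 0.1 for each of the 3). *klf2a* differed by 0.57 with overlap (p = 0.4, exact permutation test), and by 0.03 without mutant replicate 3. *ccl19a.2* overlapped as well, with a difference of 0.90. The differences were -5.78 for *ccr7*, -2.28 for *sgpl1* and -1.84 for *ccl19a.1*, without overlap. Lymphatic endothelium markers, all 6 higher, had sums between 20.8 and 28.6 CPM in wild types and between 86.0 and 90.8 CPM in mutants.

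Ratios to erythrocyte and to connective tissue markers were added after values had been seen, the former because mutant replicate 3 was high in *klf2a* and in these markers alike, so they describe that library and do not test it. The log2 ratio of *klf2a* to the erythrocyte sum was −2.16, −2.42 and −2.44 in wild types and −2.72, −3.02 and −2.85 in mutants, a difference of -0.52 without overlap (exact permutation p = 0.1, adjusted 0.2 over 8 ratios). Over all genes tested, 74.5% were lower and 0.441% higher in this ratio without overlap, and the median difference was −2.52. For *spns2* the ratio to erythrocyte markers overlapped between genotypes (−3.45 ± 0.223 and −3.65 ± 0.337, SD, n = 3 each; exact permutation p = 0.4, adjusted 0.64), as it did for *s1pr1*, *klf2b* and *ccl19a.2*, with differences of 0.18, −0.26 and −0.19.

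Connective tissue markers (*pdgfra*, *pdgfrb*, collagens and others) were higher for 10 of 10 identifiers, with a median log2 fold change of 2.48. Their summed level was 1038, 4556 and 3764 CPM in wild types and 15867, 12212 and 18096 CPM in mutants, a 4.93-fold higher mean. Wild-type replicate 1 was the lowest, as for *s1pr1*, *klf2a*, *klf2b*, *spns2* and the summed erythrocyte markers. The collagen genes *col1a1a* and *col1a2* made up most of the connective tissue sum, with means of 1370 and 1446 CPM in wild types and 7043 and 6832 CPM in mutants. Log2 fold changes of the 10 identifiers ranged from 0.28 for *pdgfra* to 2.79, so that ratios to this sum are largely ratios to these 2 collagens. Relative to this sum, *s1pr1* differed by 0.18, *klf2b* by −0.26, *spns2* by −0.20, *klf2a* by −0.52 and *ccl19a.2* by −0.19 on the log2 scale, and the genotypes overlapped for each of these 5 genes (exact permutation p between 0.6 and 0.9, adjusted 0.9 over 8 ratios). *ccr7*, *ccl19a.1* and *sgpl1* were lower without overlap, with differences of −6.87, −2.93 and −3.37, where 71.4% of all genes tested were lower and 0.878% higher and the median was −2.51. The part of connective tissue, endothelium or erythrocytes in the values of the members was not tested.

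**Figure D4:**
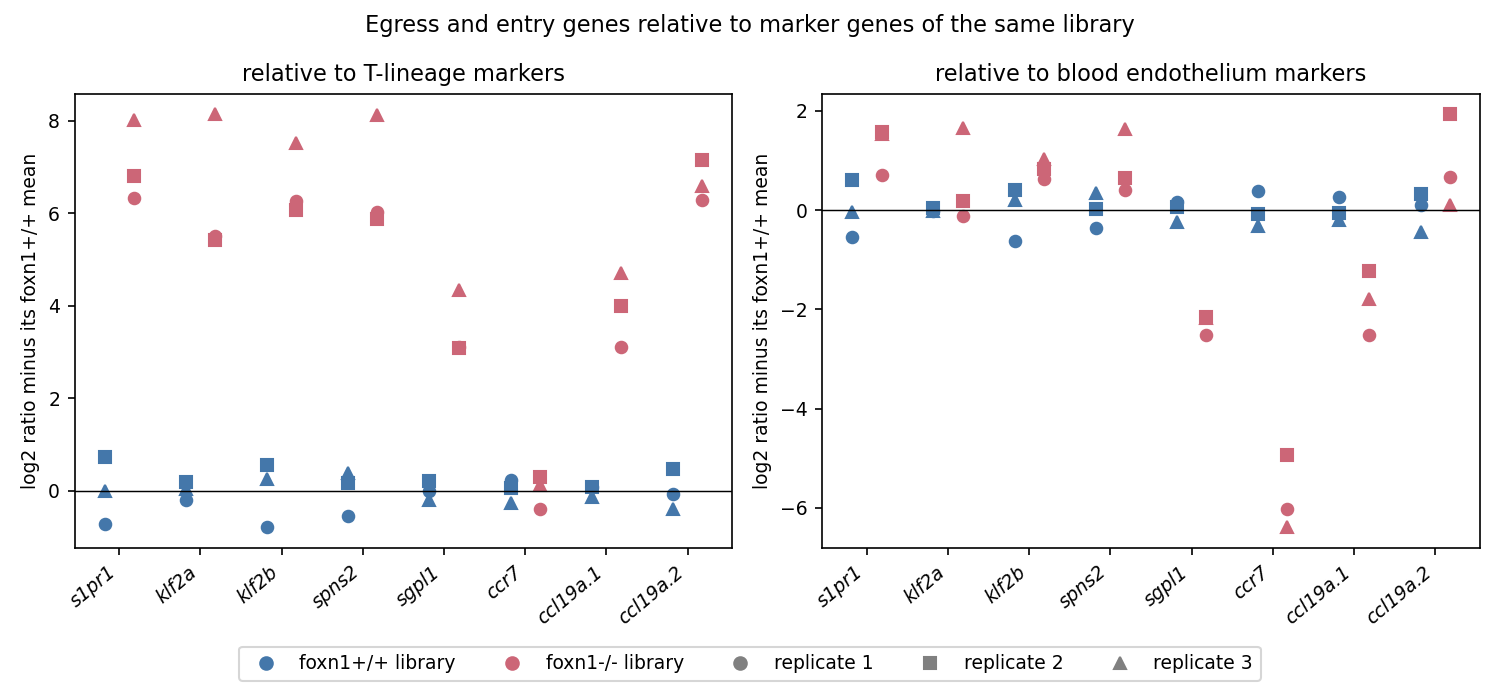
Log2 ratio of each egress or entry gene to the summed CPM of T-lineage markers (left) and of blood endothelium markers (right) in the same library, minus its foxn1+/+ mean (vertical axes), for foxn1+/+ (blue) and foxn1-/- (red) libraries. Relative to T-lineage markers *ccr7* overlaps between genotypes, with a difference of 0.00, or of −0.16 without *rag1* in the sum. Both sums include *gata3*, the marker that fell least. The other 7 genes lie higher in mutants, where the median of all genes above 0 is 4.36. Relative to endothelium *ccr7*, *sgpl1* and *ccl19a.1* lie lower.

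Genes with the most similar profile were found by the root mean square difference of centred log2 CPM over the 6 libraries. The candidates were the 17946 tested genes that had a symbol and averaged 1 CPM or more. Closest to *klf2a* were *adamtsl7* (0.162) and, nearest of all, *klf1* (0.111), the Krüppel-like factor of red blood cell development, counted 315, 287 and 354 times in wild types against 972, 923 and 2394 times in mutants. *klf2b* was closest to the gene listed as FSTL1 (0.0511) and to *frzb* (0.0668), both secreted regulators of signalling, and *spns2* to the collagen receptor gene listed as ANTXR1 (0.103) and to the collagen gene *col16a1* (0.107). Closest to *ccl19a.2* was the immunoglobulin light chain constant gene *igic1s1* (0.132), followed by the homeobox gene listed as LHX8 (0.171). All 8 identifiers of the B cell marker list were higher in mutants, against 36.2% of all genes tested. Their sums were between 23.2 and 24.0 CPM in wild types and 92.9, 98.0 and 68.6 CPM in mutants. The largest part came from ENSDARG00000099849, listed under EBF1, with a mutant mean of 36.2 CPM. The part of B cells in the *ccl19a.2* value was not tested. *ccr7* was closest to *h2ax* (0.0982), a histone gene of DNA break signalling, and to si:ch211-272h9.5 (0.119), and *ccl19a.1* to the lysozyme gene *lyz* (0.0579) and to *gpr137* (0.0708). *s1pr1* was closest to the gene listed as AMIGO1 (0.0877) and to si:dkey-181d19.6 (0.0926), and *sgpl1* to that listed as INTS2 (0.0315) and to *actr3* (0.0339). Among the members themselves, *klf2a* and *spns2* were the most alike (0.307), followed by *s1pr1* and *klf2b* (0.322), *klf2b* and *spns2* (0.335) and *ccl19a.1* and *sgpl1* (0.350).

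*klf2a* and *s1pr1* also lie near each other in the genome. In the RefSeq order of genes of the assembly GRCz12tu, not the GRCz11 of the counts, they share a chromosome with 5 genes between them. These 5 genes were looked at after the rise of both was seen. Of these, *stil* fell by 2.83 on the log2 scale, *zbtb37* fell by 0.44, and *serpinc1* had a log2 fold change of 0.26 that did not pass the test. *eps15l1a* was called higher, with a log2 fold change of 0.30 (adjusted p = 0.0442, edgeR). *rc3h1a* was matched through the symbol RC3H1 to 2 identifiers that both fell, and which of them lies there was not determined. None of the 5 rose by as much as either flanking gene.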

How the data were processed

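Whole thymi were explanted and poly(A) RNA of 3 fish was pooled per library, with 3 libraries per genotype, so p-values measure the spread between these pools. Genotypes and replicate numbers came from the sample labels. The submitters' processing notes list Trim Galore 0.4.3.1 (trimming), HISAT2 2.1.0 (alignment), featureCounts 1.6.1.0 (counting) and the build GRCz11, and the authors deposited raw counts per Ensembl gene. The annotation release, strand setting and treatment of shared reads are not given in the sources used here.

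The 23805 genes that exceeded 5 counts in 3 or more libraries were tested with TMM and edgeR 4.0.16 (robust quasi-likelihood test) in R 4.3.3. Standard errors are the log2 fold change divided by the root of the F statistic. Symbols came from a table naming 29201 identifiers. Where a symbol was not found, it was searched without its final a or b. Sequences were not used here. At these depths 3 counts equal between 0.0623 and 0.0874 CPM, which covers counting error only.

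The members and lists were chosen with earlier results of these data known. Named were all members, *foxn1*, the pathway lists, the T-lineage and endothelium markers, and for each member the 2 closest profiles; other genes were named after their values were seen. The tests were also run on simulated data in which only a small part of the genes changed, in both directions. In the libraries 72.1% of the genes passed, so that simulation could not check the scaling or the calls under so broad a change. Alternatives were DESeq2 1.42.0, voom and treat (limma 3.58.1, fold change 1.2), other scalings and filters, a replicate block, leaving out each library, and for ratios to T-lineage and endothelium markers the list without its most abundant gene. No 2 libraries were copies (chi-square per degree of freedom between 33.2 and 105 within genotypes).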

Additional observations from a re-analysis of the deposited data

How the results depend on the processing

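The 7 called members kept their direction and their call under all 13 alternative settings (91 of 91 values). *ccl19a.1* was called only with library size alone (-0.76) and without mutant replicate 2, and its log2 fold change ranged from -0.55 to -0.15 when 1 library was left out. With *ccl19a.1* and *ccl19a.2* summed, a setting chosen after seeing the data, the log2 fold change was 0.13, which turned the direction of the first and ended the call of the second. Library size alone moved the median over all genes by -0.40 (log2) and the share of higher genes among calls from 50.2% to 38.4%. Among the 50 other pathway genes, 5 turned direction under some alternative, none of which had passed the test as reported: *sgpp1a* and *foxo3b* with library size alone (-0.056 and -0.22), *klf4* with voom and treat (0.010), and 3 when 1 library was left out, which gave ranges from -0.90 to 2.9e-06 for *apom*, from -0.20 to 0.12 for the identifier ENSDARG00000034817 under ASAH1 and from -0.51 to 0.35 for *klf4*. The cause was not tested. A further 6 lost their call under at least 1 alternative. With the main setting included, KLF6 was called in 9 of 14 settings, *sphk2* in 10 of 14 and *sgpp2* in 10 of 13. *mapk7* and the identifier ENSDARG00000037091 under ASAH1 were called in 11 of 14, and *acer2* in 13 of 14. Calls were gained by 5 genes: *s1pr4* and *sgpp1a* without mutant replicate 2, *sgpp1a* also with at least 10 counts in every library, the identifiers ENSDARG00000079790 under PLPP1 and ENSDARG00000034817 under ASAH1 with library size alone, and *acer3* without wild-type replicate 1. Differences of ratios to the T-lineage and blood endothelium sums moved by less than the SD pooled over both genotypes when the most abundant marker or any 1 library was left out. For some ratios the move exceeded the wild-type SD alone (*klf2a* to endothelium, 0.57 to 0.03 against 0.039). The ratios to erythrocyte and connective tissue sums were not put to this check, nor recomputed without their most abundant marker. Replicate numbers are shared by the genotypes, but same-numbered libraries did not deviate together (correlations 0.139, -0.0611 and -0.00895), so they were not treated as pairs. With the replicate block, 16306 genes were called in place of 17165, and every member kept its call. Levels near 3 counts, as for the lower FOXO1 identifier, are limited by depth.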
